A study of Mus musculus with 661 samples.

Results

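Hedgehog pathway genes were followed through the mesenchymal cells of young and old mouse bone marrow. The set holds 7 of the 45808 genes in the deposited count table, namely the ligand gene Ihh, the receptor gene Ptch1, the inhibitor gene Hhip, the transducer gene Smo and the transcription factor genes Gli1, Gli2 and Gli3. The genes were picked by name with their measured counts in these same cells already known, so their levels and differences are given as a description and none was tested. The study asked how aging alters the stromal cells that house blood stem cells in bone. Single cells were sorted into wells, and each was sequenced as its own library by a full-length plate protocol of the Smart-Seq2 type, which carries no molecular identifiers. All mice were C57BL/6 wild type of both sexes, and the labels name no transgene and no treatment. Young mice were 6 to 12 weeks of age, and old mice were at least 18 and mostly about 24 months of age.

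Of the 661 cells, 354 were sorted as mesenchymal and 307 as endothelial. From the endosteum came MSC-S cells (Sca-1+ CD51+, 59 young and 59 old), mOPr cells (Sca-1- CD51+ PDGFRα+ LepR-, 26 young and 26 old) and OPr osteoprogenitors (PDGFRα- LepR-, 44 young and 29 old). The flushed central marrow gave MSC-L cells (PDGFRα+ LepR+, 53 young and 58 old). Endothelial cells were AEC (endosteal, CD31+ with high Sca-1, 84 young and 82 old) and SEC (marrow, 70 young and 71 old), and they serve here as an outside reference. Because the labels name no mouse, the cells of 1 age and 1 population form 1 sample, and no spread between animals can be given.

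The study's own clustering (ICGS, iterative clustering guided by selected genes) placed the mesenchymal cells in 16 clusters, M1 to M16. Clusters M1 and M2 form the MSC-L-like identity group (56 young and 80 old cells), M3 to M5 the OPr-like group (55 and 39) and M6 to M16 the MSC-S-like group (71 and 53). Of these clusters, M10, M11 and M13 hold 1 cell each and M14 holds 4, and orders of clusters are given over the other 12. Among the 496 genes that guided this clustering were 0 of the 7 Hedgehog genes. The identity names were set beside markers. Among the genes that guided the clustering were 5 of the MSC-L, 3 of the MSC-S and 2 of the osteoblast markers. Their sums are therefore no independent check. The summed level of 6 MSC-L markers (Lepr, Cxcl12, Kitl, Adipoq, Ebf3 and Foxc1) was 56396 CPM in young and 47139 CPM in old MSC-L-like cells, and at most 1246 CPM in any other identity group and age. CPM are counts per 1000000 nuclear counts, from the summed counts of a group. For 5 MSC-S markers (Ly6a, Pdgfra, Cd34, Dpt and Pi16) the sum was 2241 CPM in young and 3242 CPM in old MSC-S-like cells, against 286 and 986 CPM in young and old OPr-like cells. Osteoblast markers did not set the OPr-like group apart, since the sum of 7 of them was 7316 and 4160 CPM in its young and old cells and 6104 CPM in old MSC-L-like cells.

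The OPr-like group was uneven in make-up between the ages. Cluster M3 held 15 young cells and 1 old cell, M4 held 9 and 4, and M5 held 31 and 34. M3 and M4 carried cartilage markers, with a summed level over 9 chondrocyte genes of 113762 CPM in M3 and 43964 CPM in M4 against 4327 CPM in M5, led by Col2a1, Chad and Comp in turn. Of these chondrocyte genes, 8 were among those that guided the clustering. Among the MSC-S-like cells, M15 held 17 young and 0 old cells, and M9 held 0 young and 10 old cells. In addition, 8 old sorted OPr cells, all in the OPr-like group, carried 13 to 15 of 15 hematopoietic markers at 10 CPM or more, whereas every other mesenchymal cell carried at most 6. Old over young ratios of OPr-like cells are therefore also given without these 8 cells and within M5 alone, with and without these cells. The splits by single clusters were chosen after seeing the data.

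Total counts per mesenchymal cell, mitochondrial genes included, ran from 58034 to 1503374, and the median was 525508 in total and 517062 for nuclear genes. The median nuclear counts, used as the depth of a cell from here on, were 464612 in young and 387939 in old cells of the MSC-L-like group, 527661 and 467979 in the OPr-like group, and 625371 and 705472 in the MSC-S-like group. For shares of cells, each cell was also thinned once to 100000 counts, which left out 1 old MSC-L-like, 1 young OPr-like and 3 old OPr-like cells. Library numbers in the labels fall into separate ranges, of which range 1 holds 130 and range 2 holds 224 mesenchymal cells, both with young and old cells. What the ranges stand for is not stated, so ratios are also given within each. Intervals are 95% intervals, exact Poisson for levels, exact conditional binomial for ratios and Clopper-Pearson for shares of cells, and they cover counting error only. The intervals of levels and ratios take reads as independent, which reads of 1 cell are not. Without the highest cell, 10 of 84 cluster levels stayed within their interval. Whether 2 intervals overlap is therefore given as a description and does not show whether clusters differ. Where a group had 0 counts, 3 counts over the group set the limit of its level and, as a separate limit, 3 cells that of its share, in place of an interval. Ratios given as at most or at least use that limit of 3 counts. Such bounds cover counting error in the sequenced cells only and do not bound the level in other cells of the group.

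Hedgehog ligands are secreted proteins that bind a Patched receptor on a receiving cell, and binding lifts the hold of Patched on Smoothened, so that GLI factors switch target genes on. Ptch1, Hhip and Gli1 are themselves targets, and the first and second of these restrain the signal, so their RNA is widely read as a mark of a responding cell. In bone, Indian hedgehog from growth plate chondrocytes paces cartilage maturation together with parathyroid hormone related protein, and it is needed for osteoblasts to form.

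The genes lie on 5 chromosomes of GRCm38. Ihh spans chromosome 1 from 74945315 to 74951672, and Gli2 lies on the same chromosome from 118834132 to 119053619. Ptch1 lies on chromosome 13 from 63508328 to 63573598, and Gli3 on the same chromosome from 15463235 to 15730026. Hhip spans 79965851 to 80058006 on chromosome 8, Smo 29735503 to 29761365 on chromosome 6, and Gli1 127329882 to 127341974 on chromosome 10. Reads were counted without regard to strand, so overlapping genes could share reads. The union of Gli1 exons shares 62 of its 4995 bases with Arhgap9 on the opposite strand. Arhgap9 had 3092 counts in mesenchymal cells, of which 3071 came from 5 old OPr-like cells, and 0 of those 5 cells had a Gli1 count. In old MSC-L-like cells it had 4 counts in 2 cells, and 2 of these had Gli1. Other genes with counts overlapped Ptch1 (A930032L01Rik, 97 counts), Smo (Gm13717, 116), Gli2 (Mir6346, 80) and Gli3 (Gm6556, 143). How many reads they shared was not tested.

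Compared per length, as CPM per kb of exon over all 354 mesenchymal cells, Smo stood highest at 15.6. Gli3 followed at 8.28, Ptch1 at 7.79, Hhip at 6.63, Gli2 at 5.06, Gli1 at 3.40 and Ihh at 0.398. In endothelial cells the same per-kb level was 5.04 for Smo and 3.84 for Ptch1, and it was 0.857 for Gli1, 0.431 for Gli3, 0.271 for Hhip, 0.148 for Gli2 and 0.0788 for Ihh. Each of the 7 genes thus had a higher pooled level in mesenchymal than in endothelial cells. The endothelial Hhip and Gli2 levels came mainly from 1 cell each, with 87.0% and 82.5% of the counts, and the Hhip level without that cell was 0.321 CPM in place of 2.46 CPM.

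**Figure D1:**
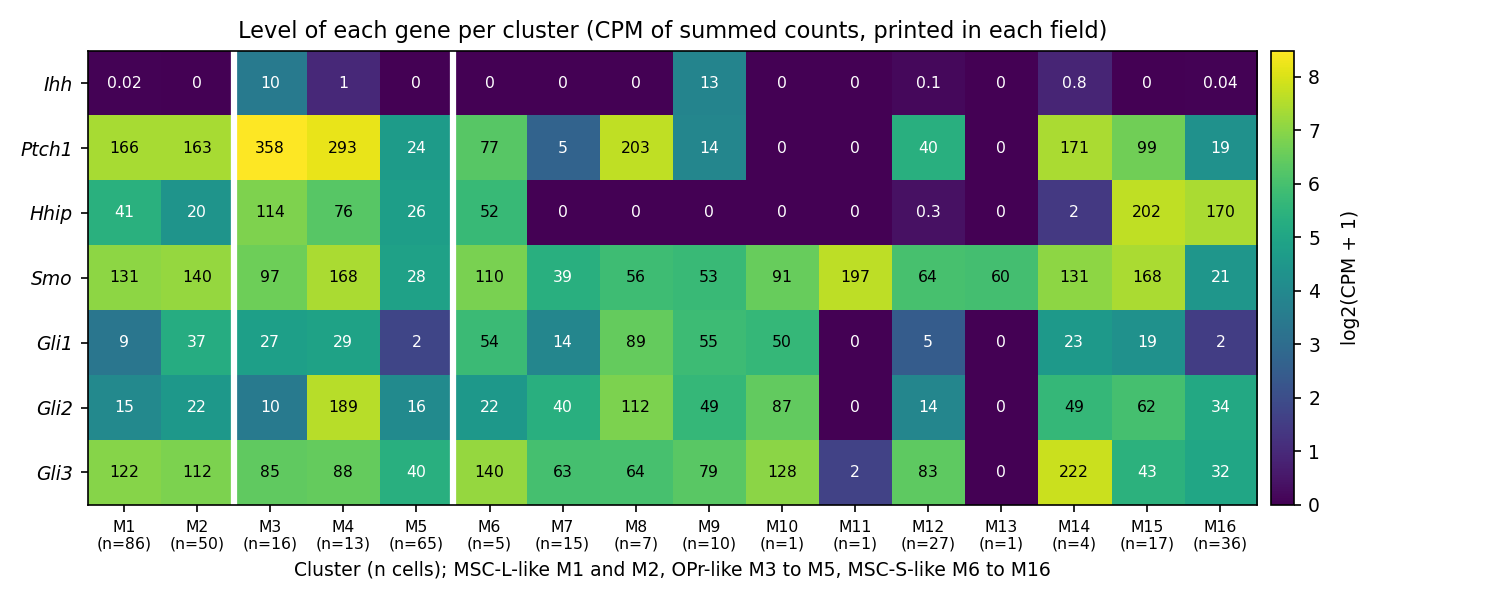
Level of each Hedgehog gene (vertical axis) in each of the 16 mesenchymal clusters (horizontal axis, with the number of cells), printed in each field as CPM of the summed counts and coloured by log2(CPM + 1), with white lines between the identity groups. Ptch1 is highest in M3 (358 CPM) and M4 (293 CPM), Hhip in M15 (202 CPM) and Gli1 in M8 (89.2 CPM), while M5 lies at 40.3 CPM or less for all 7 genes.

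Ihh encodes Indian hedgehog, the secreted ligand. Its 235 counts over the 354 mesenchymal cells came from 10 cells, or 2.82% of them (1.43% after thinning), at a pooled level of 1.21 CPM (1.06 to 1.38). Endothelial cells showed 1 to 5 counts in 6.19% of cells and 0.240 CPM. Counts of that size in single mesenchymal cells are therefore no more than the endothelial reference. Above it stood 5 mesenchymal cells, and the lowest and the median cell were at 0 CPM in every identity group at either age.

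In M3, 3 young OPr cells held 75, 20 and 14 Ihh counts (107, 25.98 and 17.8 CPM). All of these cells were chondrogenic by Col2a1, at 100422, 94730 and 80979 CPM, and each expressed the parathyroid hormone receptor gene Pth1r at 3276, 2991 and 4738 CPM. The third cell also had 6001 CPM of Col10a1, a marker of hypertrophic chondrocytes. An old MSC-S cell in M4 held 8 counts (46.9 CPM) beside 4490 CPM of Col2a1. The cell with most Ihh was of another kind. This old MSC-S cell of M9 held 111 counts, 47.2% of all mesenchymal Ihh counts, at 134 CPM. It had 0 CPM of Acan, Sox9 and Col10a1, 1.21 CPM of Col2a1, 794 CPM of Pthlh, 219 CPM of Gli1, and 0 CPM of Ptch1 and Smo. So the strongest ligand cell lacked counts of the receptor and of the transducer.

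By age, the young OPr-like group had 110 counts in 4 of 55 cells (3.58 CPM, highest cell 107 CPM) and the old group 8 counts in 1 of 39 cells (0.402 CPM, highest cell 46.9 CPM). The log2 ratio of old to young was -3.16 (-4.40 to -2.13), or -2.70 without the cells with hematopoietic markers. It was -0.80 within library range 1 and at most -4.23 within range 2, where old cells had 0 counts. In sorted MSC-S cells the sign was opposite, with 5 counts in young and 119 counts in old cells and a log2 ratio of 4.39 (3.13 to 6.04). The M9 cell alone held 93.3% of those old counts, and the ratio with the top cell of either age left out was 1.24. Sorted OPr cells had 110 counts in young and 0 in old, a log2 ratio of at most -4.74, or at most -3.02 without the highest young cell. No ratio can be given for mOPr cells (0 and 0 counts) or MSC-L cells (1 and 0 counts). Each Ihh difference thus rests on a handful of cells.

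Ptch1 encodes the Hedgehog receptor, which is also a target of the pathway. It was detected in 230 mesenchymal cells (65.0%, and 57.3% after thinning) at 111 CPM (109 to 112), and in 47.6% of endothelial cells at 54.5 CPM. Across clusters with at least 5 cells the level was highest in M3, at 358 CPM (347 to 369) with a count in 16 of 16 cells. M4 followed at 293 CPM, M8 at 203, M1 at 166, M2 at 163, M15 at 99.1, M6 at 77.2, M12 at 39.6, M5 at 23.97, M16 at 18.8, M9 at 13.7 and M7 at 5.44. M1 and M2 are neighbours whose intervals overlap (162 to 169 and 158 to 169). Without the highest cell the level was 129.9 CPM in M8, 45.01 in M6, 24.6 in M12, 8.91 in M9 and 1.94 in M7. The OPr-like group therefore holds both the highest clusters and one of the low ones, since Ptch1 was counted in 23 of 65 cells of M5.

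In the MSC-L-like group the lowest, median and highest cell had 0, 79.1 and 1116 CPM of Ptch1 in young and 0, 109.7 and 1276 CPM in old mice. Young and old MSC-L-like cells overlapped over almost their whole range, and the pooled levels of 158 and 170.4 CPM gave a log2 ratio of 0.11. In the OPr-like group the same 3 values were 0, 11.3 and 1224 CPM in young and 0, 0 and 1074 CPM in old cells. There, 36 of 55 young cells (65.5%, thinned 61.1%) and 14 of 39 old cells (35.9%, thinned 25.0%) had a count. Both ages reached similar high cells, but most old cells were at 0. The pooled levels were 186 CPM (181 to 191) in young and 79.97 CPM (76.1 to 83.999) in old cells, a log2 ratio of -1.22 (-1.30 to -1.14). A single old cell held 46.5% of the old counts, and the old level without it was 44.3 CPM. With the top cell of either age left out the ratio was -1.82.

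The Ptch1 ratio of OPr-like cells differed between subsets. Within M5 alone the log2 ratio was -0.32, and it was -0.77 without the 8 cells with hematopoietic markers. With both choices together, 26 old and 31 young M5 cells had 31.1 and 26.996 CPM, a ratio of 0.20 (-0.01 to 0.42), so the sign turned. There 1 old cell held 47.9% and 1 young cell 62.02% of the counts, and the levels without them were 16.9 CPM in old and 10.4 CPM in young cells. The 8 cells had 4 Ptch1 counts, all in 1 cell. Within library ranges 1 and 2 the ratio was -2.16 and -0.74. In range 2, 1 cell held 61.7% of the old counts. Without the highest cell the old and young levels there were 35.7 and 127.5 CPM in place of 88.5 and 148 CPM. The 9 chondrocyte markers summed to 52120 CPM in young OPr-like cells (9 of 9 with counts, Col2a1 the most abundant at 22506 CPM) and to 8146 CPM in old ones (9 of 9, Chad at 4923 CPM). The 15 hematopoietic markers summed to 23.6 CPM in young cells (14 of 15, Lcp1 the most abundant, Cd52 at 0) and to 6270 CPM in old cells (15 of 15, Plek the most abundant at 1153 CPM). Without the 8 cells the old sum was 269.8 CPM (13 of 15, Plek the most abundant, Cd52 and Csf3r at 0). Pericyte and smooth muscle markers moved too, with 5 of 5 at 143 CPM in young and 5 of 5 at 2734 CPM in old cells, led by Acta2 at 54.7 and 2137 CPM. The part of these cells in the Ptch1 difference was not tested beyond the values without them.

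MSC-S-like cells had a lowest, median and highest Ptch1 value of 0, 1.29 and 705 CPM in young and 0, 0 and 342 CPM in old mice. A count was found in 36 of 71 young (50.7%) and 26 of 53 old cells (49.1%), so the shares were close. Pooled levels were 56.9 and 40.5 CPM, a log2 ratio of -0.49, which had opposite signs within library range 1 (2.67) and range 2 (-1.51). It was 1.99 in M7, from 2 cells with counts at each age, and 1.49 in M12. Without the highest cell the old and young levels were 0.960 and 0.208 CPM in place of 9.87 and 2.49 CPM in M7, and 26.8 and 12.4 CPM in place of 66.1 and 23.5 CPM in M12. Among sorted populations the young and old levels were 58.2 and 40.4 CPM in MSC-S, 65.9 and 98.1 in mOPr, 197 and 133 in OPr, and 156 and 178 in MSC-L cells. All 4 pooled ratios were under 2-fold, but in MSC-S and mOPr cells they pool ranges of opposite sign. Range 1 gave 2.90 in MSC-S, 4.13 in mOPr and -1.02 in OPr cells, and range 2 gave -1.42, -1.87 and -0.22. Without the highest cell the young range 1 level was 2.43 CPM in place of 8.87 CPM in MSC-S cells. In mOPr cells it was 5.87 CPM in place of 11.8 CPM, and the old OPr level in range 2 was 90.6 CPM in place of 143.7 CPM. Among the OPr cells of OPr-like identity alone the ratio was -1.24, from 239 CPM in 36 young and 101.3 CPM in 19 old cells, and the old level was 40.9 CPM without the cell that held 62.03% of its counts. Among the OPr-like mOPr cells it was 0.02.

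Hhip encodes a membrane protein that binds Hedgehog ligands and holds them back, and it is a target of the pathway as well. It was counted in 84 mesenchymal cells (23.7%, thinned 17.8%) at 60.2 CPM (59.1 to 61.3), and 1 cell with 3497 CPM held 26.2% of all its counts. Without that cell the level was 44.7 CPM. Hhip was thus a gene of few cells with high values, and the median mesenchymal cell had none.

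By cluster, Hhip was highest in M15, which holds young cells alone, at 202 CPM (12 of 17 cells). M16 came next at 170.3 CPM (16 of 36 cells), but 1 cell held 72.1% of those counts and the level without it was 49.3 CPM. M3 had 114 CPM (10 of 16 cells), M4 76.5 CPM (5 of 13), M6 51.6 CPM, M1 40.9 CPM (26 of 86), M5 25.9 CPM (4 of 65), M2 20.1 CPM (4 of 50) and M12 0.311 CPM. No neighbours in this order had overlapping intervals down to M2, yet M6 and M2 each rest on 1 cell, with 98.5% and 94.9% of the counts and levels of 1.00 and 1.12 CPM without it. In M4 and M5 as well, 1 cell held 55.6% and 63.9% of the counts, and the levels without it were 36.6 and 9.72 CPM. M7, M8 and M9 had 0 counts.

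The plainest age difference was in OPr-like cells. In young cells the lowest, median and highest values were 0, 0 and 596 CPM, and 19 of 55 cells had Hhip (34.5%, thinned 33.3%), with a median of 148 CPM among the 19. Of the old cells 0 of 39 had a count, also after thinning, which allows a share of up to 7.69% of cells and a level of up to 0.151 CPM. All cells with Hhip were therefore young, while the other 36 young cells were at 0 like the old ones. The pooled young level of 89.0 CPM (85.7 to 92.4) was 589.98-fold above that limit of level, a log2 ratio of at most -9.20. This bound covers counting error only. A share at its limit of 7.69%, with values like those of the young cells, would give a higher old level, so the size of the difference is not fixed by the bound.

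Because all 39 old OPr-like cells had 0 Hhip counts, every subset of them has 0 as well. The values by subset thus show only the young cells and the bounds. In library range 1, 6 of 12 young and 0 of 14 old cells had Hhip (log2 ratio at most -7.68), and in range 2 it was 13 of 43 and 0 of 25 (at most -8.60). In M5 alone 4 of 31 young and 0 of 34 old cells had it (at most -8.38). In M4 it was 5 of 9 young and 0 of 4 old cells, and in M3 10 of 15 young cells and not the 1 old cell. Without the 8 cells with hematopoietic markers, which had 0 Hhip counts, the bound was -8.75. By sort gate, Hhip was found in 16 of 36 young OPr, 2 of 9 MSC-S, 1 of 8 mOPr and 0 of 2 MSC-L cells of the group, and in 0 of 19, 0 of 6, 0 of 12 and 0 of 2 of the old ones. Whether the differing shares of chondrogenic cells contribute was not tested beyond the values by cluster.

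Sorted OPr cells gave another picture, because 10 of the 29 old OPr cells belonged to the MSC-L-like clusters. Hhip was counted in 23 of 44 young (52.3%, thinned 48.8%) and 6 of 29 old OPr cells (20.7%, thinned 14.8%). All 911 old counts lay in 6 of those 10 MSC-L-like cells, which had 94.9 CPM. Pooled levels of 128 and 42.6 CPM gave a log2 ratio of -1.59 (-1.70 to -1.49), with -1.41 in range 1, -1.72 in range 2, -1.18 without cells with hematopoietic markers and at most -8.77 in the OPr cells of OPr-like identity. In range 1, 1 cell held 99.7% of the old counts, and the old level without it was 0.140 CPM in place of 40.96 CPM. Sorted mOPr cells had Hhip in 6 of 26 young and 2 of 26 old cells, at 108 and 10.7 CPM and a log2 ratio of -3.34 (-3.60 to -3.08). It was at most -7.74 in range 1 and -2.28 in range 2. The ages differed in identity here, since of the young mOPr cells 16 were MSC-S-like, 8 OPr-like and 2 MSC-L-like, and of the old ones 0, 12 and 14. Among the OPr-like mOPr cells alone the ratio was at most -6.05, with all young counts in 1 cell. Without the highest cell the mOPr levels were 63.8 and 4.64 CPM, and the old OPr level was 28.1 CPM. In range 1 the young mOPr level without the highest cell was 40.01 CPM in place of 134.9 CPM. In range 2 the young and old mOPr levels were 31.8 and 7.76 CPM in place of 84.04 and 17.4 CPM. The old OPr level there was 21.6 CPM in place of 43.7 CPM. Both osteoprogenitor sorts were thus lower for Hhip in old mice in each range, at levels that rest on few cells.

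In MSC-S-like cells the lowest, median and highest Hhip values were 0, 0 and 3497 CPM in young and 0, 0 and 587 CPM in old mice. Counts were found in 24 of 71 young cells (33.8%, thinned 28.2%) and 11 of 53 old cells (20.8%, thinned 7.55%), and the median among these was 95.1 CPM in young and 3.79 CPM in old cells. The ages overlapped, but most old cells with Hhip had few counts. Pooled levels were 138 CPM (134 to 141) and 17.4 CPM (16.0 to 18.7), a log2 ratio of -2.99 (-3.11 to -2.87). The highest young cell held 49.4% and the highest old cell 76.5% of the counts, and without them the levels were 71.1 and 4.18 CPM and the ratio -4.09. M15, which has no old cell, is part of the young level, and within M16 alone the ratio was -3.39. The ratio was -1.64 in range 1 and -3.54 in range 2.

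Sorted MSC-S cells had a log2 Hhip ratio of -2.81 (-2.94 to -2.70) from 117 CPM in young and 16.6 CPM in old cells. The highest cell held 75.7% of the young and 76.5% of the old counts, and the levels without it were 29.1 and 3.99 CPM. The sign depended on the library range, at 2.44 in range 1 and -3.39 in range 2. In range 1, 1 cell held 90.6% of the 149 old and 1 cell 91.2% of the 34 young counts, and the old level fell from 15.1 to 1.52 CPM and the young level from 2.79 to 0.261 CPM without them. In range 2 it was 99.2% of the old and 76.4% of the young counts, with 0.141 and 43.95 CPM without them. MSC-L-like cells had Hhip in 11 of 56 young and 19 of 80 old cells, at 27.6 and 39.7 CPM and a log2 ratio of 0.53. That value pools ranges of opposite sign, with -0.58 in range 1 and 1.75 in range 2. A single young cell held 45.3% of the young counts, and the young and old levels without the highest cell were 15.6 and 31.1 CPM. By range they were then 17.7 and 6.59 CPM in range 1, and 1.81 and 33.8 CPM in range 2. No direction with age can therefore be given for Hhip in these cells. For sorted MSC-L cells the levels were 10.6 and 18.2 CPM, a log2 ratio of 0.78, and leaving out the top cell of either age it was 2.24.

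**Figure D2:**
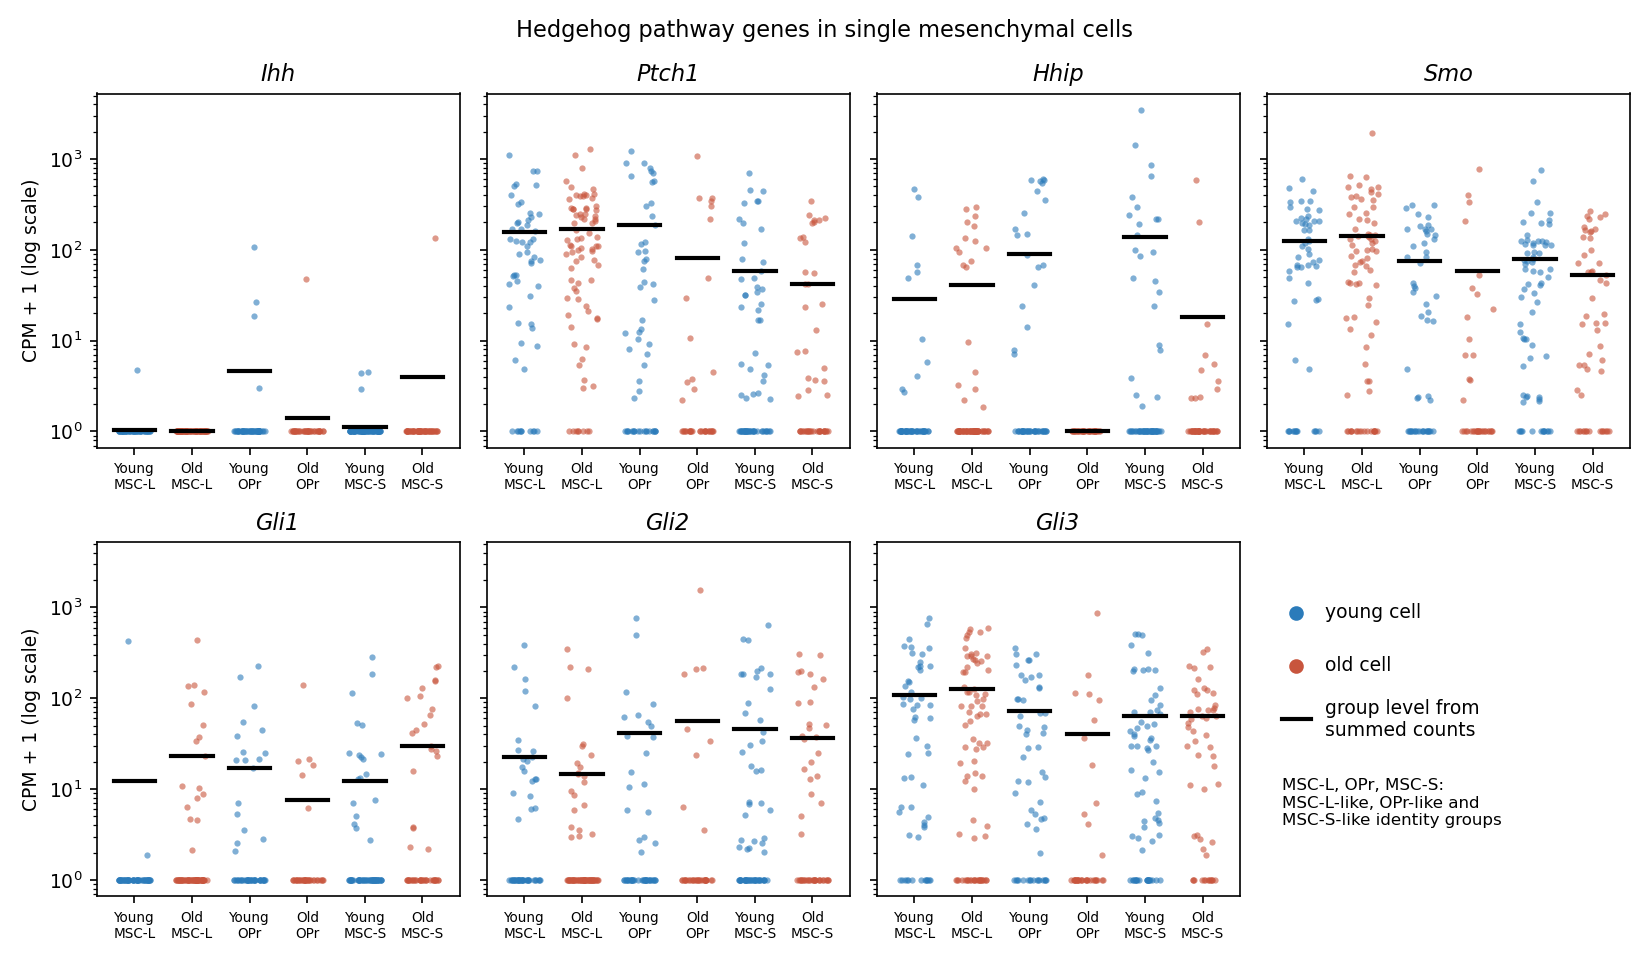
The 7 Hedgehog genes in single young (blue) and old (red) cells of the MSC-L-like, then OPr-like, then MSC-S-like group, with CPM + 1 on a logarithmic vertical axis, 1 point for each cell, and a black bar at the level from the summed counts. Hhip has counts in 19 of 55 young and 0 of 39 old OPr-like cells, and cells without a count lie on the bottom line.

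Smo encodes Smoothened, the membrane protein that passes the signal on once Patched releases it. With a count in 251 mesenchymal cells (70.9%, thinned 64.2%) and 87.8 CPM (86.5 to 89.1) it was the gene of the 7 found in most cells. Cluster levels ran from 168 CPM in M15 and 168 in M4, whose intervals overlap, through M2 (139.9), M1 (131), M6 (109.5), M3 (96.7), M12 (63.6), M8 (56.1), M9 (52.8), M7 (39.5) and M5 (27.7) to M16 (20.8). Intervals also overlapped between M6 and M3 and between M12, M8 and M9. The M8 level was 34.3 CPM without its highest cell. M5 and M16 were the low clusters for Smo, as they were among the low ones for Ptch1.

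Young and old cells overlapped in each identity group. The lowest, median and highest Smo values were 0, 74.6 and 599 CPM in young and 0, 69.5 and 1912 CPM in old MSC-L-like cells. In OPr-like cells they were 0, 17.6 and 309.9 CPM in young and 0, 0 and 771 CPM in old, and in MSC-S-like cells 0, 41.1 and 765 CPM in young and 0, 14.6 and 268 CPM in old. The old OPr-like median was at 0 because a count was found in 15 of 39 cells (38.5%, thinned 33.3%) against 35 of 55 young cells (63.6%, thinned 57.4%). Log2 ratios of the pooled levels were -0.56 in MSC-S-like, 0.18 in MSC-L-like and -0.38 in OPr-like cells. None of these pooled ratios reached 2-fold, but subsets went apart. In OPr-like cells Smo was at -6.56 in range 1 and 0.43 in range 2, at -1.64 in M5 alone, at 0.08 without cells with hematopoietic markers and at -1.09 with these choices together, and 1 old cell held 46.3% of the counts (57.6 CPM with it, 32.02 without). Range 1 had 7 old counts. Without the highest cell the old and young range 2 levels were 47.3 and 54.01 CPM, so the sign turned. Without hematopoietic markers the old level was then 44.4 CPM in place of 78.8 CPM, beside 69.3 CPM in young cells. In M5 without them it was 5.92 CPM in place of 20.9 CPM. In MSC-S-like cells the ranges gave 0.55 and -1.13, and M7 and M16 alone gave 1.19 and 1.05. Among the OPr-like cells of the mOPr sort Smo was at -2.69, from 62.4 CPM in young and 9.64 CPM in old cells (41.8 and 5.56 CPM without the highest cell).

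Gli1 encodes an activating factor that is itself switched on by the pathway. It was counted in 83 mesenchymal cells (23.4%, thinned 17.8%) at 16.97 CPM (16.4 to 17.6), against 8.79% of endothelial cells and 4.28 CPM. M8 was highest at 89.2 CPM (81.05 to 98.1) and was counted in 5 of 7 cells, followed by M9 at 55.1, M6 at 54.2, M2 at 37.1, M4 at 28.7, M3 at 26.6, M15 at 18.8, M7 at 13.9, M1 at 9.03, M12 at 4.55, M5 at 2.42 and M16 at 1.89 CPM. M9 and M6 had overlapping intervals, as did M4 and M3, M15 and M7 at their edges, and M5 and M16. A level in M6 rests on 1 cell with 86.8% of the counts and was 9.00 CPM without it, and the levels without the highest cell were 19.1 CPM in M2, 17.8 in M4, 13.04 in M3, 9.61 in M15, 5.86 in M7 and 0.410 in M16. The order of Gli1 thus differs from that of Ptch1, with M9 high for Gli1 and low for Ptch1.

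In OPr-like cells the lowest, median and highest Gli1 values were 0, 0 and 225.0 CPM in young and 0, 0 and 139 CPM in old mice. The gene was found in 18 of 55 young (32.7%, thinned 24.1%) and 6 of 39 old cells (15.4%, thinned 11.1%). Cells of the ages overlapped, with fewer old cells above 0. Pooled levels of 16.1 CPM (14.7 to 17.6) and 6.58 CPM (5.505 to 7.81) gave a log2 ratio of -1.29 (-1.58 to -1.01). The highest old cell held 73.3% of the old counts, so that the old level without it was 1.82 CPM, and the ratio with the top cell of either age left out was -2.63. It was -2.98 in range 1, -0.95 in range 2, -1.30 in M5 alone, -0.84 without cells with hematopoietic markers and -0.75 with these choices together, so whether it reached 2-fold depended on the subset and on single cells.

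MSC-S-like cells went the other way. Their lowest, median and highest Gli1 values were 0, 0 and 281 CPM in young and 0, 0 and 229 CPM in old mice, with counts in 19 of 71 young (26.8%, thinned 19.7%) and 21 of 53 old cells (39.6%, thinned 32.1%). Single cells overlapped over the whole range, and the larger share with Gli1 was among old cells. Pooled levels of 11.4 CPM (10.4 to 12.4) and 29.002 CPM (27.3 to 30.8) gave a log2 ratio of 1.35 (1.20 to 1.51), or 1.65 with the top cell of either age left out. The sign was the same in range 1 (1.89) and range 2 (1.25), and in the 3 clusters with at least 5 cells of each age, at 1.71 in M7, 2.80 in M12 and 2.55 in M16. These cluster values rest on few cells. In M7, Gli1 was counted in 5 of 9 young and 2 of 6 old cells, 1 old cell held 87.6% of the old counts, and without it the old level was 3.39 CPM against 7.28 CPM in young cells. In M16 1 old cell held 88.1% of the old counts (0.352 CPM without it), and 1 young cell all 5 young counts. M12 had Gli1 in 2 of 17 young and 3 of 10 old cells. M9, which has 55.1 CPM and no young cell, is part of the old level.

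Sorted MSC-S cells had a log2 Gli1 ratio of 1.30 (1.14 to 1.48), with 16 of 59 young and 21 of 59 old cells at 11.2 and 27.7 CPM. It was 1.64 in range 1, 1.23 in range 2 and 1.83 with the top cell of either age left out. In sorted mOPr cells 6 of 26 young and 9 of 26 old cells had Gli1, at 8.78 and 34.4 CPM, a log2 ratio of 1.97 (1.68 to 2.27). A single old cell held 80.9% of those counts, and the ratio with the top cell of either age left out was 0.50, while the ranges gave -0.63 and 3.45. That cell belonged to M2, as 14 of 26 old but 2 of 26 young mOPr cells were MSC-L-like, and among OPr-like mOPr cells the ratio was 4.11, from 1 count in young and 23 counts in old cells. The mOPr value was therefore not stable in sign. Sorted OPr cells had 16.7 and 15.9 CPM, and MSC-L cells 12.6 CPM from 1 of 53 young cells and 7.33 CPM from 9 of 58 old cells, which was 3.74 CPM without the highest old cell. The OPr levels pool ranges of opposite sign, with a ratio of 1.48 in range 1 and -1.41 in range 2, and in MSC-L cells it was at least 1.67 in range 1 and -0.88 in range 2. Without the highest cell the OPr levels were 7.29 CPM in young and 13.5 CPM in old cells of range 1, and 13.3 and 0.828 CPM in range 2.

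MSC-L-like cells had Gli1 in 2 of 56 young (3.57%, thinned 1.79%) and 17 of 80 old cells (21.2%, thinned 16.5%). The lowest and median cell were at 0 at both ages, and the highest had 429.7 CPM in young and 435 CPM in old mice. Pooled levels of 11.2 and 22.2 CPM gave a log2 ratio of 0.99 (0.79 to 1.19), just under 2-fold. One young cell held 99.7% of the young counts, and the young level without it was 0.0398 CPM, from 1 count. The old level without its highest cell was 12.6 CPM. The ratio of 8.30 between them rests on that 1 young count and has no interval. The count of cells therefore differs more than the pooled level shows. Library range 1 gave 7.72 (5.23 to 13.03) and M1 alone 8.51 (6.03 to 13.8), each against 1 young count. Range 2 gave 0.31 and M2 alone -0.96, each with all young counts in 1 cell. The highest old cell held 68.2% of the counts in range 2 and 87.4% in M2, and the old levels without it were 8.28 and 3.96 CPM.

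Gli2 encodes the main activator that acts first on a signal, and it was counted in 129 mesenchymal cells (36.4%, thinned 26.6%) at 34.7 CPM (33.9 to 35.6). It was far lower in endothelial cells, at 1.01 CPM in 2.93% of cells. M4 led with 189 CPM (10 of 13 cells; 116 CPM without its highest cell), followed by M8 at 112 (43.4 without its highest cell), M15 at 62.2, M9 at 49.4, M7 at 39.6, M16 at 33.6, M6 at 22.2, M2 at 22.03, M5 at 15.5, M1 at 14.9, M12 at 13.8 and M3 at 10.2 CPM. The M7 level came from 1 of 15 cells. Intervals overlapped between M7 and M16, between M6 and M2, between M5, M1 and M12, and between M12 and M3. Without the highest cell the level was 14.0 CPM in M6, 13.2 in M2, 8.11 in M12 and 5.45 in M3. M3 and M4, which share the cartilage markers, stood at opposite ends for Gli2.

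The pooled Gli2 level differed by less than 2-fold between the ages in each of the 4 sorted populations and 3 identity groups, but not within the library ranges. In OPr-like cells the median was 0 at both ages, with highest cells of 759 and 1576 CPM, and the pooled levels were 40.4 and 54.99 CPM, a log2 ratio of 0.45. The highest cell held 39.5% of the young and 66.6% of the old counts, and without it the levels were 25.2 and 18.8 CPM. Levels were 21.8 CPM in young and 13.6 in old MSC-L-like cells, and 45.1 and 35.8 in MSC-S-like cells, log2 ratios of -0.68 and -0.33. In MSC-L-like cells the ranges gave -4.63 and 1.03, and in OPr-like cells -0.92 and 1.13. The OPr-like ratio was 0.55 in M5, 0.90 without cells with hematopoietic markers and 1.09 with these choices together, and in MSC-S-like cells M16 gave 3.72. In M7 it was at most -6.36, with 0 counts in 6 old cells and 371 counts in 1 of 9 young cells. Among sorted cells range 1 gave 1.77 in MSC-S, -1.12 in mOPr, -5.41 in OPr and -3.23 in MSC-L cells, and range 2 gave -0.65, 0.48, 0.91 and 0.92. A single old OPr cell held 87.4% of the Gli2 counts of its group, and the top cells left out, the OPr levels were 33.8 CPM in young and 5.02 CPM in old. By range, the old and young OPr levels without the highest cell were 0.247 and 33.3 CPM in range 1. In range 2 they were 7.40 and 12.1 CPM, so both were then lower in old cells. In MSC-S-like cells both ranges were below 0, at -0.61 and -0.54, whereas they had opposite signs in the other 6 comparisons. Over all cells, no direction with age can therefore be given for Gli2 in those 6, and in MSC-S-like cells it was under 2-fold except in single clusters.

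Gli3 encodes the factor that mainly acts as a repressor where no ligand is present. It was counted in 239 mesenchymal cells (67.5%, thinned 55.6%) at 79.4 CPM (78.1 to 80.6), and in 22.1% of endothelial cells at 4.13 CPM. The order of clusters was M6 (140.4 CPM), M1 (122), M2 (112), M4 (88.2), M3 (85.0), M12 (82.9), M9 (78.6), M8 (63.95), M7 (62.9), M15 (42.8), M5 (40.3) and M16 (31.5). Neighbouring intervals overlapped from M4 through M9, between M8 and M7, and between M15 and M5. Gli3 was thus counted in each of the 12 larger clusters, within a narrower span of levels than Gli1 or Gli2. In M8 and M5 the level without the highest cell was 28.7 and 25.6 CPM.

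By age, the lowest, median and highest Gli3 values in OPr-like cells were 0, 12.6 and 355 CPM in young and 0, 0 and 872 CPM in old mice. A count was found in 39 of 55 young (70.9%, thinned 57.4%) and 12 of 39 old cells (30.8%, thinned 19.4%). Fewer old cells had Gli3, although the highest cell was old. Pooled levels of 71.2 and 39.005 CPM gave a log2 ratio of -0.87, and 1 old cell held 59.5% of the old counts (16.2 CPM without it). Within ranges 1 and 2 the ratio was -0.01 and -1.96, in M5 alone -0.52, without cells with hematopoietic markers -0.42, and with these choices together 0.01. The values near 0 rest on 1 old cell, which held 83.7% of the old counts in range 1 and 80.9% in M5 without hematopoietic markers. Levels without the highest cell were 15.5 CPM in old and 74.3 CPM in young cells of range 1, and 9.78 and 38.3 CPM in those M5 cells. Young and old levels were 108 and 127 CPM in MSC-L-like cells and 62.99 and 62.5 CPM in MSC-S-like cells, where ages overlapped. In the sorted populations Gli3 stayed within 2-fold, from -0.32 in MSC-S to 0.89 in mOPr cells, although range 2 of mOPr gave 1.30. Among OPr-like mOPr cells alone it was -3.21, so the mOPr sign turned, from 140.5 CPM in 8 young and 15.2 CPM in 12 old cells (88.02 and 6.98 CPM without the highest cell). M2 alone gave 1.14 and M7 alone -2.28.

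**Figure D3:**
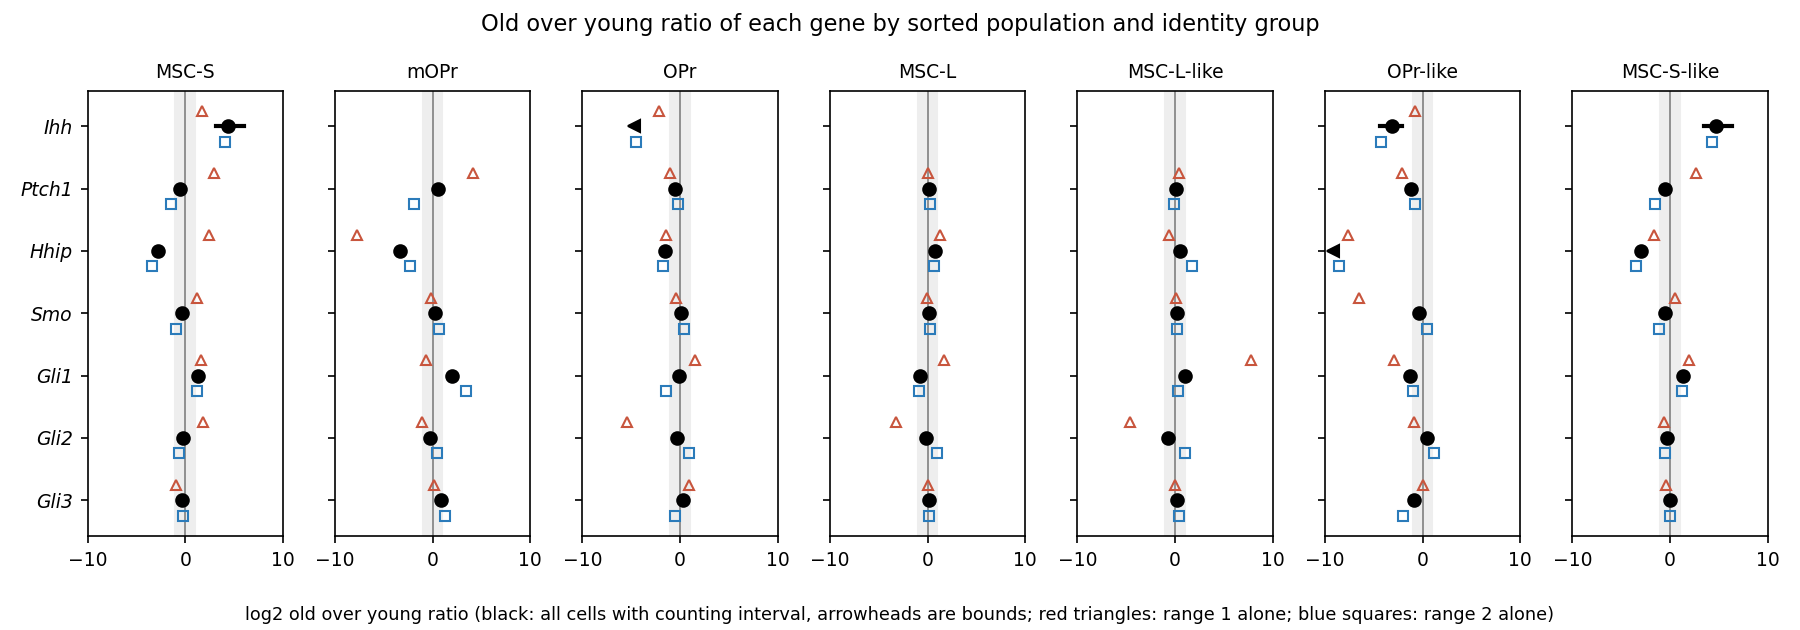
Log2 ratio of old to young levels (horizontal axis) of each Hedgehog gene in the 4 sorted populations and 3 identity groups, with black points for all cells and lines for 95% counting intervals, black arrowheads for bounds, red triangles for library range 1, blue squares for range 2 and a grey band for less than 2-fold. Black points for Hhip lie below the band in MSC-S, mOPr, OPr, OPr-like and MSC-S-like cells, although range 1 of MSC-S lies above it (2.44), and Gli1 lies at 1.35 in MSC-S-like and -1.29 in OPr-like cells.

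Counted across the genes, a difference was taken as 2-fold or more, among genes that had 100 or more counts and were seen in 5 or more cells of the comparison, and each count is set beside the share of all such genes. In OPr-like cells 4 of 7 genes were lower in old cells (Ihh, Ptch1, Hhip and Gli1), against 24.5% of all genes, and 0 of 7 were higher, against 23.8%. The median log2 ratio was -1.22 for the Hedgehog genes and 0.01 for all genes. Without the cells with hematopoietic markers the lower genes were Ihh and Hhip (2 of 7, all genes 22.1%), with Ptch1 at -0.77 and Gli1 at -0.84. There the highest cell held 46.6% of the old Ptch1 and 73.3% of the old Gli1 counts. Without the highest cell the old and young levels were 61.2 and 156 CPM for Ptch1. For Gli1 they were 2.53 and 11.3 CPM, so both genes were then past 2-fold. Other genes made up the count in other subsets, with Hhip and Gli3 lower in range 2 (2 of 6, all genes 24.2%), Ptch1 and Hhip after thinning (2 of 6, all genes 18.6%), and Ptch1, Hhip, Smo and Gli1 in range 1 (4 of 6, all genes 38.6%). In range 2 the highest cell held 61.7% of the old Ptch1 and 80% of the old Gli1 counts. Without it the old and young levels were 35.7 and 127.5 CPM for Ptch1, and 1.87 and 10.3 CPM for Gli1, past 2-fold. Gli2 was higher in range 2, where 26.3% of all genes were. There 1 cell held 83.7% of the old Gli2 counts. The old and young levels without the highest cell were 10.8 and 12.5 CPM, so the sign turned. In M5 alone the lower gene was Smo (1 of 4, all genes 26.5%), and without hematopoietic markers Smo was lower there (1 of 4, all genes 23.8%) and Gli2 higher (1 of 4, all genes 26.6%). Hhip was in each of these counts but those of M5, where it was seen in 4 cells and so was not counted. In MSC-S-like cells 1 of 6 was lower (Hhip), against 15.7%, and 1 of 6 higher (Gli1), against 9.91%. MSC-L-like cells had 0 of 6 lower, against 10.8%, and 0 of 6 higher, against 15.5%. Since the genes were picked with their values known, nothing beyond these counts is read from the comparison.

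For the sorted cells, MSC-S had 1 of 7 lower (Hhip), against 13.3% of all genes, and 2 of 7 higher (Ihh and Gli1), against 10.4%. In mOPr cells it was 1 of 6 lower (Hhip), against 20.7%, and 1 of 6 higher (Gli1), against 25.8%. OPr cells had 1 of 6 lower (Hhip), against 21.1%, and 0 of 6 higher, against 27.2%. MSC-L cells had 0 of 6 lower, against 12.8%, and 0 of 6 higher, against 15.4%. Hhip was the lower gene in each of these endosteal counts over all cells, but not in every subset. In range 1, MSC-S had 0 of 6 lower (all genes 19.2%) and 5 of 6 higher, Hhip among them (16.9%), mOPr had Gli2 lower (1 of 5, 27.3%) and Ptch1 higher (1 of 5, 23.5%), and OPr had Ptch1, Hhip and Gli2 lower (3 of 6, 33.6%). Hhip was also lower in those old mOPr cells, at most -7.74, but was seen in 3 cells and so was not counted. In range 2, Hhip was lower with Ptch1 in MSC-S (2 of 6, 14.9%) and mOPr cells (2 of 6, 23.6%) and with Gli1 in OPr cells (2 of 6, 19.8%).

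The rest of the pathway was read from a list of 44 genes that includes the 7, spanning ligands, ligand release, receptors, cilium and regulator genes, targets and the growth plate loop. Of the list genes with enough counts, 12 of 40 were lower and 7 of 40 higher in old OPr-like cells, against 24.5% and 23.8% of all genes. It was 8 and 9 of 40 without the cells with hematopoietic markers (22.1% and 23.7%), 9 and 10 of 35 in M5 alone (26.5% and 27.2%), and 5 and 12 of 34 with these choices together (23.8% and 26.6%). In MSC-S-like cells 7 of 37 were lower and 7 of 37 higher, against 15.7% and 9.91%, and in MSC-L-like cells 1 of 35 was lower and 11 of 35 higher, against 10.8% and 15.5%. Median log2 ratios of the list in OPr-like, then MSC-S-like, then MSC-L-like cells were -0.10, -0.32 and 0.29, beside 0.01, -0.09 and 0.03 for all genes. For sorted cells the counts lower and higher were 4 and 8 of 37 in MSC-S (all genes 13.3% and 10.4%), 6 and 13 of 35 in mOPr (20.7% and 25.8%), 14 and 8 of 38 in OPr (21.1% and 27.2%), and 2 and 9 of 35 in MSC-L (12.8% and 15.4%). The list had genes on either side in all 7 comparisons, and nothing particular to it is read from these counts.

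Shh, another ligand gene, had 0 counts in 56 young MSC-L-like cells and 247 counts in 17 of 80 old ones, at 7.02 CPM. That is 60.3-fold above the limit set by 3 young counts, a log2 ratio of at least 5.91 by counting error only. Of the old Shh counts 1 cell held 32.8%. Within ranges 1 and 2 the Shh ratio was at least 5.44 and at least 4.22, with 48.5% and 62.5% of the counts in 1 cell, and the old levels without it were 6.19 and 1.499 CPM in place of 11.3 and 3.93 CPM. Hhat, whose product adds palmitate to the ligand, was higher in old MSC-L-like cells (16.1 and 68.4 CPM, log2 ratio 2.09) and lower in old OPr-like cells (29.4 and 2.81 CPM) and old MSC-S-like cells (28.97 and 5.39 CPM). The sign was the same in each range, with Hhat ratios of 2.19 and 2.01 for MSC-L-like cells. The OPr-like value was -5.67 in range 1 and -3.02 in range 2, while MSC-S-like cells had -3.40 and -1.95. The range 1 values rest on few cells, since without the highest cell the old and young levels were 0.344 and 8.63 CPM in place of 0.473 and 24.1 CPM in OPr-like, and 0.473 and 18.97 CPM in place of 3.47 and 36.6 CPM in MSC-S-like cells. In OPr-like cells it was -2.93 without the cells with hematopoietic markers, -2.50 in M5 alone and -1.95 with these choices together, and the old and young M5 levels without the highest cell were then 1.15 and 2.31 CPM. In M16 the sign was opposite to that of the MSC-S-like group, at 1.78, with 77.5% of the young counts in 1 cell (3.92 CPM with it, 0.943 without). Hhat thus differed in opposite directions between MSC-L-like cells and the other identity groups as wholes, in each range.

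On the receiving side, the co-receptor gene Boc was lower in old OPr-like cells (179 and 66.05 CPM, -1.44). Its ratio was -0.99 without the cells with hematopoietic markers, so under 2-fold, -2.28 in M5 alone, -1.74 with these choices together, -1.86 in range 1 and -1.03 in range 2, and -0.53 after thinning. In ranges 1 and 2, 1 cell held 64.5% and 50.6% of the old Boc counts, with old levels of 38.5 and 25.9 CPM without it in place of 99.03 and 50.6 CPM. In M5 1 old cell held 71.4% of the Boc counts, and the old and young levels without the highest cell and without hematopoietic markers were 14.6 and 106.9 CPM. The co-receptor gene Cdon was lower in old MSC-L-like cells (25.7 and 6.22 CPM, -2.05), with -4.70 in range 1 and -0.21 in range 2, and with opposite signs in M1 (-2.92) and M2 (2.13). In range 1, 1 young cell held 61.4% of the young Cdon counts, and the young level was 18.7 CPM without it in place of 43.7 CPM. In M2 1 old cell held 89.9% of the Cdon counts, and the old and young levels without the highest cell were 1.02 and 1.11 CPM. Neither gene thus kept a 2-fold difference in every subset. In young and old MSC-S-like cells the co-receptor genes were abundant, with Gas1 at 1050 and 708 CPM, Cdon at 707 and 461 CPM, and Boc at 252 and 177 CPM. Gas1, Cdon and the ligand release gene Scube1 were among the genes that guided the clustering.

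Of the growth plate loop, Pth1r was highest in a cartilage cluster and Pthlh was not. Pth1r, the receptor for parathyroid hormone related protein, had 1772 CPM in M3, and 781 CPM in young and 340.4 CPM in old OPr-like cells (log2 ratio -1.20). That ratio sets 15 young M3 cells beside 1 old one. It was -0.75 without the cells with hematopoietic markers, 0.17 in M5 alone and 0.71 with these choices together, and -2.90 in range 1 and -0.62 in range 2, so its sign was not stable. In range 1 the old level was 61.1 CPM without the highest cell in place of 141 CPM, and in M5 without hematopoietic markers 282 CPM in place of 492 CPM. Pthlh, the gene of that ligand, had 57.05 CPM in young and 98.2 CPM in old MSC-S-like cells (0.78), with opposite signs in range 1 (-1.20) and range 2 (0.96) and a ratio of -0.04 with the top cell of either age left out, and it was 2.33 CPM in M3, 127 CPM in M9 and 269.96 CPM in M7, where 1 cell held 77.9% of the counts. Among general targets, Ccnd1 had 20.6 and 99.4 CPM in young and old MSC-S-like cells (2.27), with 54.6% of the old counts in 1 cell, and Bcl2 had 14.0 and 32.1 CPM (1.20). Ranges 1 and 2 gave 2.13 and 2.18 for Ccnd1 and 0.50 and 2.18 for Bcl2. The old levels there without the highest cell were 49.7 CPM in place of 71.7 CPM and 37.9 in place of 108 CPM for Ccnd1, and 13.9 in place of 32.5 CPM and 20.7 in place of 31.96 CPM for Bcl2, and the pooled Ccnd1 ratio with the top cell of either age left out was 1.56. These target genes also answer to other pathways, so they are given as levels only.

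A cell able to receive and pass on a Hedgehog signal needs the receptor, the transducer and a GLI factor. Cells with a count of Ptch1, Smo and at least 1 GLI gene made up 25 of 55 young OPr-like cells (45.5%, 31.97 to 59.4) and 3 of 39 old ones (7.69%, 1.62 to 20.9). After thinning the shares were 38.9% and 8.33%, and without the cells with hematopoietic markers the old share was 9.68%. Old OPr-like cells thus seldom had the whole chain, at a median depth of 467979 against 527661 counts in young ones. Of the old cells 34 of 39 belonged to M5, against 31 of 55 young ones. By cluster the share was 81.2% in M3 (13 of 16), 76.5% in M15 (13 of 17), 69.8% in M1 (60 of 86), 69.2% in M4 (9 of 13), 33.3% in M16 (12 of 36), 25.9% in M12 (7 of 27) and 9.23% in M5 (6 of 65). It was 3 of 5 cells in M6, 4 of 7 in M8, 20 of 50 in M2, 3 of 10 in M9 and 3 of 15 in M7. Thinning changed the order, to 12 of 16 cells in M3, 61.5% in M4, 56.98% in M1, 4 of 7 cells in M8, 41.2% in M15, 2 of 5 cells in M6, 32.7% in M2, 2 of 10 cells in M9, 18.5% in M12, 11.1% in M16, 6.56% in M5 and 0 of 15 cells in M7. Within M5, 6 of 31 young cells (19.4%, thinned 13.3%) had the chain, and so did 0 of 26 old cells without hematopoietic markers, which allows a share of up to 11.5%. All M5 cells with the chain were thus young, whereas M3 has 1 old cell and gives no comparison. The 3 old OPr-like cells with the chain therefore lay in M3 or M4, which hold 1 and 4 old cells. The low old share of the group was thus a matter of M5, and the M4 share was not split by age.

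In MSC-L-like cells the chain was found in 31 of 56 young (55.4%, thinned 44.6%) and 49 of 80 old cells (61.2%, thinned 50.6%). MSC-S-like cells had it in 27 of 71 young (38.03%, thinned 18.3%) and 20 of 53 old cells (37.7%, thinned 22.6%). The shares in endothelial cells were 5.95% in young and 3.66% in old AEC, and 7.14% and 4.23% in SEC. Among endothelial clusters, E1 stood apart with the chain in 7 of 14 cells. The study marked pericytes and contaminating doublets of mesenchymal and endothelial cells among its endothelial clusters. Whether E1 holds such cells was not tested. The share therefore varied between clusters of both kinds, and the old OPr-like share was close to those of sorted endothelial cells. The median number of the 7 genes per cell was 5 in M3 and M15, 4 in M4 and 1 in M5. Cells with 0 of the 7 genes were 3 of 55 in young and 11 of 39 in old OPr-like cells (28.2%), or 6 of 31 without cells with hematopoietic markers.

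Among single OPr-like cells, the target genes were often found together, but so were Smo and Gli3, which are not among the targets named above. Gli3 was counted in 34 of 50 cells with Smo (68%) and in 17 of 44 without (38.6%). Ptch1 was counted in 20 of 24 cells with Gli1 (83.3%) and in 30 of 70 without (42.9%), or 82.4% and 38.4% after thinning. Without the cells with hematopoietic markers it was in 20 of 24 cells with Gli1 and 29 of 62 without (46.8%), and in M5 without them in 5 of 9 and 17 of 48. In M3, Ptch1 was in 11 of 11 cells with Gli1 and 5 of 5 without, so no difference was seen there. In M4 it was in 4 of 4 and 7 of 9. Gli1 was counted in 13 of 19 cells with Hhip (68.4%) and in 11 of 75 without (14.7%), or 9 of 18 and 8 of 72 after thinning, and without the cells with hematopoietic markers it was in 11 of 67 without Hhip. Cells with Hhip were somewhat deeper (median 682955 against 511471 counts), as were cells with Gli1 (660758 against 506382). Over the 94 OPr-like cells, which span 3 clusters and both ages, Pearson's r of log2(CPM + 1) was 0.488 for Ptch1 with Gli1 and 0.497 for Ptch1 with Hhip. Without the cells with hematopoietic markers it was 0.4700 and 0.482, and in M5 without them 0.2603 and 0.255. For Ptch1 with Smo, r was 0.449 over the group, 0.410 without the cells with hematopoietic markers and -0.073 in M5 without them. For Gli2 with Gli3 it was 0.171 over the group. Over the group, a high r was thus not particular to the target genes. In MSC-S-like cells Gli1 and Hhip were not found together more often, with Gli1 in 22.9% of cells with Hhip and 35.96% of cells without, or 4 of 24 and 27 of 100 after thinning. Ptch1 was found there in 62.5% of cells with Gli1 and 44.05% without. MSC-L-like cells had Ptch1 in nearly all cells, at 89.5% with Gli1 and 86.3% without.

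Genes most like each Hedgehog gene were sought by Pearson's r of log2(CPM + 1) across the 12 clusters with at least 5 cells, among 11862 genes that had 1000 or more counts and were seen in 10 or more cells. For Ptch1 they were Dtnb (0.956), Nckap5 (0.880) and Usp6nl (0.874), and for Hhip they were Gramd1b (0.920), Stard10 (0.907) and S100a1 (0.884). Smo was nearest to Kcnq1ot1 (0.832), Itm2c (0.815) and Lpar4 (0.807). The genes nearest to Gli1 were Whsc1l1 (0.826), Mtrr (0.801) and Dnajc11 (0.791), and those nearest to Gli2 were Fbxo33 (0.895), Usp9x (0.862) and Ssbp3 (0.832). Gli3 was nearest to B4galt4 (0.908), Oat (0.888) and Gpsm1 (0.874). With 12 points and so many genes, high values of r arise readily, and none of the nearest genes was another Hedgehog gene. Ihh had too few counts to be compared.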

How the data were processed

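The authors mapped reads of 661 single-cell libraries with GSNAP to GRCm38.p4 and deposited raw HTSeq counts per gene and cell, counted without strand. The members and gene lists were chosen with earlier results of these data known. Of 46078 entries, 270 were repeated names, and 45771 nuclear genes set the totals, with 37 mitochondrial genes kept out of the totals. Levels are CPM of summed counts. No test between ages was made, since the labels name no mouse. No paired analysis was possible because the labels pair no cells or mice. Named genes are the 7 members, the pathway and marker lists, and the 3 genes most correlated with each member across clusters. Alternatives were mean CPM, median-of-ratios scaling, thinning, no filter on low genes, library ranges, subsets of cells, and 1 CPM added to both ages. Doublets were not called. Code was tested on simulated data with scipy 1.17.1, pandas 2.3.3, numpy 2.4.6 and matplotlib 3.10.9 under Python 3.11.15.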

Additional observations from a re-analysis of the deposited data

Results flagged for a closer look

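Ihh stood out because the sign of its old over young log2 ratio was opposite in 2 endosteal populations, at 4.39 in MSC-S cells and at most -4.74 in OPr cells. In MSC-S cells 1 old cell held 93.3% of the old counts, and the OPr value is a bound from 0 old counts. The difference between the populations was not tested.

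Gli1 stood out in the same way, with a log2 ratio of 1.35 in MSC-S-like cells and -1.29 in OPr-like cells. Within library range 2 the values were 1.25 and -0.95, and within range 1 they were 1.89 and -2.98. This difference was not tested either.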

How the results depend on the processing

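Of 14 ratios at 2-fold or more, Ihh in OPr and Ihh in MSC-S-like cells came from too few cells for the counts of genes below. All 14 kept their sign and side of 2-fold with mean CPM, median-of-ratios scaling or a pseudocount. All 14 kept their sign when thinned and within range 2, and 13 and 12 of them stayed past 2-fold. Within range 1, 11 of 13 kept their sign and 10 stayed past 2-fold; the signs reversed for Hhip in MSC-S (2.44) and Gli1 in mOPr cells (-0.63). Without the highest cell of each age 13 of 13 kept their sign and 12 stayed past 2-fold. The ratio missing there and in range 1 is Ihh in MSC-S-like cells (4.73), since its old counts lie in 1 cell of range 2. Median-of-ratios scaling shifted the median gene by -0.12 in mOPr, -0.14 in OPr and 0.12 in MSC-S-like cells. The numbers of Hedgehog genes past 2-fold, lower and then higher in old cells, were 1 and 2 in MSC-S, 1 and 1 in mOPr, 1 and 0 in OPr, 0 and 0 in MSC-L and MSC-L-like, 1 and 1 in MSC-S-like, and 4 and 0 in OPr-like cells. Range 1 gave 0 and 5 in MSC-S (19.2% and 16.9% of all genes), 3 and 1 in OPr (33.6% and 25.3%), 1 and 1 in MSC-L (18.5% and 18.1%), 1 and 1 in MSC-L-like (16.6% and 18.3%), and 2 higher in MSC-S-like cells (14.8%). Range 2 gave 2 and 1 in MSC-S (14.9% and 12.6%), 2 and 2 in mOPr (23.6% and 31.2%), 2 lower in OPr (19.8%), 2 higher in MSC-L-like (19.6%), 2 and 1 in OPr-like (24.2% and 26.3%) and 3 lower in MSC-S-like cells (16.03%). In mOPr cells range 1 gave 1 and 1 (27.3% and 23.5%), of other genes than over all cells. Thinning gave 1 higher in MSC-S (7.15%), 0 higher in mOPr (21.5%) and 2 lower in OPr-like cells (18.6%). Without the highest cells no share of all genes is given, so no count is given either. Hhip was then past 2-fold higher in MSC-L cells, and Gli1 in MSC-L-like cells, against 1 young count. In mOPr cells Gli3 was higher (77.1 and 36.7 CPM in old and young) in place of Gli1. Gli2 was then lower in old OPr cells. In OPr-like cells Smo (32.02 and 69.3 CPM) and Gli3 (16.2 and 62.9 CPM) were also past 2-fold lower in old. Cells matched to their identity gave 1 higher in MSC-S (11.3%), 2 lower in mOPr (Smo and Gli3, 25.4%, with Gli2 higher, 30.9%, in place of Hhip lower and Gli1 higher, which were then seen in too few cells) and 3 lower in OPr cells (Ptch1, Hhip and Gli1, 31.9%). Mean CPM gave 2 higher in mOPr cells (23.7%). Without cells with hematopoietic markers 2 were lower in OPr-like cells (22.1%). No filter on low genes added Ihh, lower in OPr and higher in MSC-S-like cells. It also added lower genes of the pathway list in MSC-L and MSC-L-like cells. No share of all genes is given for that setting, so nothing is read from these additions. Single clusters gave 1 and 1 in M1 (12.1% and 14.5%), 1 higher in M2 (Gli3, 30.3%), 1 lower in M5 (Smo, 26.5%), 2 higher in M7 (18.5%) and M16 (15.5%), and 0 lower in M12 (24.2%). M5 without cells with hematopoietic markers gave 1 and 1 (Smo and Gli2, 23.8% and 26.6%), and Ptch1 reversed there to 0.20. On the pathway list it gave 5 and 12 in place of 12 lower and 7 higher. Of other pathway genes, Pth1r reversed in M5 to 0.17, or 0.71 without those cells, Cdon in M2 to 2.13 and Hhat in M16 to 1.78, and these alternatives for the pathway list were chosen after seeing the data. The cause was not tested for these changes. Under thinning 84 of 98 shares of cells stayed within their interval, as did 49 of 84 cluster levels with mean CPM and 10 of 84 without the highest cell. Depth limits shares of cells, as thinning took Ihh from 2.82% to 1.43%, Gli2 from 36.4% to 26.6% and Gli3 from 67.5% to 55.6% of mesenchymal cells.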
